A study of Homo sapiens with 4 samples.

Results

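Solute carriers are the membrane proteins that move ions, sugars, amino acids, metals, nucleotides and vitamins across cell membranes, and their genes carry the symbol SLC with a family number. The genes described here have a symbol that starts with SLC and a digit and at least 30 counts summed over the 4 libraries, which held for 130 of the 378 symbols considered. They fall into 38 families, with 34 genes in the SLC25 family of mitochondrial carriers and 96 genes in the other families. Of the remaining symbols, 248 had fewer than 30 counts, and 137 of those had none. Just inside the threshold lay SLC22A23 with 31 counts, SLC23A2 with 34 counts and SLC39A10 with 34 counts, and just outside it lay SLC35E3 with 28 counts, SLC19A2 with 27 counts and SLC25A21 with 27 counts. The symbol does not make every member a carrier: SLC9A3R1, SLC9A3R2, SLC4A1AP, SLC7A6OS and SLC2A4RG are named after a carrier they bind, neighbour or regulate, and these 5 were chosen by name after their values were seen.

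Most carriers of the plasma membrane and the secretory pathway are threaded into the membrane of the endoplasmic reticulum while ribosomes are still making them. Most SLC25 carriers are built on free ribosomes and are imported afterwards into the inner mitochondrial membrane. There they exchange metabolites such as ADP, ATP, phosphate and citrate with the cytosol. They are small proteins of a common fold, and the number of ribosomes that an mRNA can hold depends on the length of its coding sequence.

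The cells were HEK293T, a line derived from human embryonic kidney. All 4 libraries came from lysates of cells that had received cycloheximide, a drug that stops ribosomes on their mRNAs, at 100 ug/mL for 10 min, and the labels name no other agent. Sedimentation through sucrose from 10% to 50% gave the free pool (RNA without ribosomes), the monosome pool (RNA with a lone ribosome), the light polysome pool and the heavy polysome pool. Capped RNA with a poly(A) tail was purified from each pool and read by nanopore as RNA, with 1 library per pool, which leaves no replicates to compare. Intervals given are 95% Clopper-Pearson intervals and cover counting error only.

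The libraries held 355509 counts (free), 1329334 counts (monosome), 1499401 counts (light polysome) and 1564531 counts (heavy polysome), so that 1 count stood for a CPM (counts divided by the total of their library and multiplied by the same constant) of 2.81, 0.752, 0.667 and 0.639 in that order. Depth limited the free pool most: 53 members had no count there and 9 had 10 or more, while 70 members had 10 or more monosome counts, 118 had as many light polysome counts and 122 as many heavy polysome counts. Markers of the line were present, with 850 counts of VIM, 285 of KRT18 and 218 of NEFL summed over the libraries, although PAX2 and INA had only 6 counts each. Of 4 genes of other cell types, PTPRC of blood cells and ALB of liver cells had no count, HBB of red blood cells had 4 counts, all in the free library, and COL1A1 of fibroblasts had 2, both in the heavy polysome library.

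Solute carrier mRNAs took a larger share of a library the further it lay down the gradient, as did the median tested gene described below. The 130 genes held 0.156% of free counts (interval 0.143 to 0.169), 0.529% of monosome counts (0.516 to 0.541), 0.758% of light polysome counts (0.744 to 0.772) and 1.03% of heavy polysome counts (1.02 to 1.05). The 34 SLC25 genes held 0.112%, 0.358%, 0.395% and 0.568% in the same order, and the 96 other genes held 0.0439%, 0.171%, 0.363% and 0.464%. Without the ADP/ATP carriers SLC25A4, SLC25A5 and SLC25A6, the SLC25 share was highest in the light polysome library, with 0.0411%, 0.196%, 0.306% and 0.230% from free to heavy polysome. The summed share of the family thus turned on these 3 genes, and the comparisons that follow go gene by gene.

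Shares of a library do not say how much RNA a pool held, so each gene was set against the median of the 7527 genes with 30 or more counts. The relative log2 ratio used throughout is the log2 ratio of a gene's share in the heavier library over its share in the lighter one, with 0.5 added to each count, minus the same value of the median gene. Genes are called higher or lower where this ratio is at least 2-fold and the counting interval leaves the median gene out. The median gene itself had a 1.51-fold higher share in the heavy than in the light polysome library. Its share in the heavy polysome library was 3.34-fold higher than in the monosome library and 8.26-fold higher than in the free pool. The summed share of the solute carriers rose by less than the median gene in each of these comparisons.

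As a group, solute carriers spread over the gradient much as the table at large did, and the SLC25 family lay somewhat nearer to the light end than the others. The mean gradient position weights the CPM of a gene by 0, 1, 2 and 3 from free to heavy polysome. Its median was 2.11 over the SLC25 genes, 2.30 over the other solute carriers and 2.25 over all tested genes. The heavy polysome library held the highest CPM for 17 of 34 SLC25 genes (50.0%), for 59 of 96 other solute carriers (61.5%) and for 61.3% of all tested genes. The monosome library held it for 5 of 34 SLC25 genes (14.7%), for 5 of 96 others (5.21%) and for 7.44% of all tested genes. The 5 SLC25 genes were SLC25A6, SLC25A23, SLC25A26, SLC25A51 and SLC25A53. No solute carrier had its highest CPM in the free library, where only 1.3% of all tested genes had theirs.

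**Figure D1:**
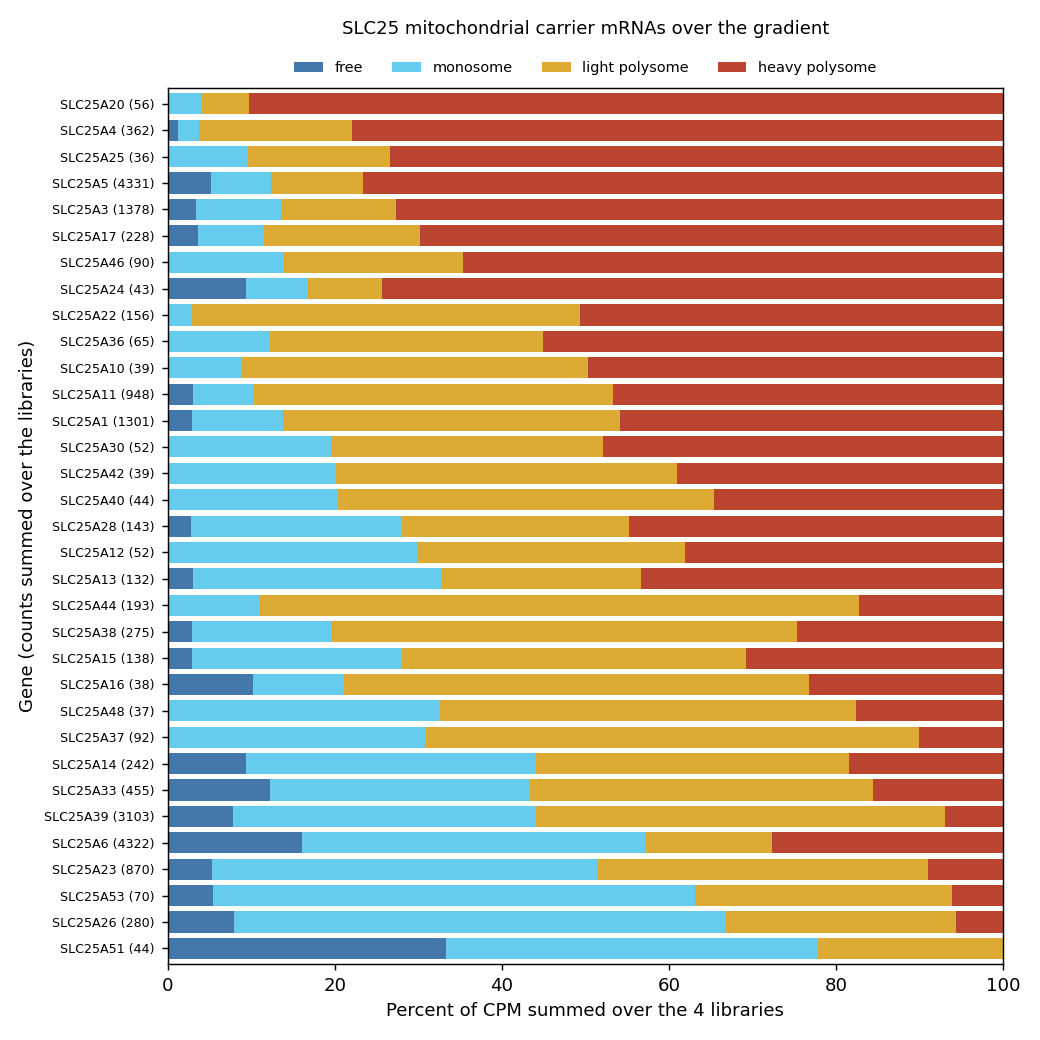
Horizontal bars give, for each SLC25 gene reported by name, the percent of its CPM summed over the 4 libraries that lay in each library, from free (left) to heavy polysome (right), with summed counts in brackets and genes ordered by mean gradient position. The ADP/ATP carriers SLC25A4 and SLC25A5 sit near the top with 77.9% and 76.6% in the heavy polysome library, and SLC25A6 sits near the bottom with 27.6% there.

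Heavy was set against light polysome to ask which carrier mRNAs lay with the most ribosomes. Of the SLC25 genes, 7 of 34 were higher and 14 of 34 were lower in the heavy polysome library, against 26.0% of all tested genes higher and 28.3% lower (54.3% in either direction). Their median relative log2 ratio was -0.47. Of the other solute carriers, 23 of 96 were higher and 24 of 96 were lower, with a median of -0.20. The SLC25 median thus lay 0.27 below the others (difference -0.27), a small gap beside the range within each list, which ran from -5.51 to 3.23 in SLC25 and from -3.73 to 4.33 in the others; the lowest SLC25 value is that of a gene with no heavy polysome count and depends on the 0.5 added. This gap turned to 0.17 when the counts of each list were summed in place of taking medians.

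Heavy polysome against monosome separated the lists more. In the SLC25 family 6 of 34 genes were higher and 16 of 34 lower in the heavy polysome library, where 21.0% of all tested genes were higher and 27.0% lower (48.0% in either direction). Of the other solute carriers 19 of 96 were higher and 19 of 96 lower. The medians were -0.97 in SLC25 and 0.14 in the others, a difference of -1.11. Light polysome against monosome gave 4 higher and 6 lower SLC25 genes and 22 higher and 9 lower other genes, against 14.9% higher and 16.3% lower of all tested genes (31.2% in either direction), with medians of -0.32 and 0.33. All 3 comparisons share libraries, so their values are not separate evidence.

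Comparisons with the free library rest on few counts. Heavy polysome against free gave 6 higher and 14 lower solute carriers, where 6.36% of all tested genes were higher and 15.3% lower (21.7% in either direction). Of the 6 higher genes, SLC4A2 and SLC27A4 had no count in the free library and SLC1A5 and SLC25A4 had 1. The number of higher genes ran from 3 to 27 over the settings tried, some of which change the number of members or the rule for a call. Of the 14 lower genes, 7 were SLC25 genes, namely SLC25A6, SLC25A14, SLC25A23, SLC25A26, SLC25A33, SLC25A39 and SLC25A51. Light polysome against free gave 11 higher and 5 lower, against 7.93% and 8.73% of all tested genes (16.7% in either direction). Monosome against free gave 6 higher and 0 lower, against 5.13% and 4.57% (9.7% in either direction). The difference between the medians of SLC25 and the other genes was -0.08, 0.12 and 0.45 in these comparisons, and its sign changed among the settings tried in each of them.

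The ADP/ATP carriers exchange ADP for ATP across the inner mitochondrial membrane, and their mRNAs lay at different ends of the gradient although the 3 coding sequences have the same length of 894 nucleotides. The annotated starts of these genes are printed here because mRNAs that begin with a C and a run of pyrimidines, known as TOP mRNAs, are the subject of the series. Capitals mark the 20 bases from the RefSeq start on, and lower case marks the 20 bases before it (RefSeq annotation of GRCh38.p14, read on the gene's strand). The windows are chr4:185143246-185143285 (plus strand) for SLC25A4, chrX:119468424-119468463 (plus) for SLC25A5 and chrX:1392094-1392133 (minus) for SLC25A6.
SLC25A4: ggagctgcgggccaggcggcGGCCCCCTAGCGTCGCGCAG
SLC25A5: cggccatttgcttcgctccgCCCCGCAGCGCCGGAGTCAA
SLC25A6: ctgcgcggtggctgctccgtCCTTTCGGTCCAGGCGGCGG

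Among these, only SLC25A6 had a C at the annotated start followed by 4 pyrimidines, read as C or T on the gene's strand at that position alone. Such a start was found at 7 of 161 RefSeq starts of the 108 members in the table of starts (4.35%), at 5.91% of the 8951 starts of tested genes and at 4.07% of all 35116 starts. The 6 members with it at any start were SLC4A2, SLC11A2, SLC25A6, SLC25A22, SLC29A1 and SLC41A3. SLC25A6 had it at 2 of 2 starts (its X and Y copies). SLC4A2, SLC11A2 and SLC25A22 had it at 1 of 4 starts each, and SLC29A1 and SLC41A3 at 1 of 2 each. The mRNAs of the 6 members lay apart: SLC25A6 was lower in heavy polysome against monosome, at -2.31, SLC4A2 and SLC25A22 were higher, at 2.17 and 2.20, and the other 3 were neither, between -0.02 and 0.32. A match describes letters at an annotated position and not the start used in these cells.

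SLC25A5, the ADP/ATP carrier of dividing cells, had the most counts of all solute carriers, with 54 counts in the free, 280 in the monosome, 486 in the light polysome and 3511 in the heavy polysome library (CPM 152, 211, 324 and 2244). It was at its highest in the heavy polysome library, at a relative log2 ratio of 2.20 against light polysome (interval 2.06 to 2.34) and 1.67 against monosome (1.50 to 1.85). SLC25A6, a paralogue from the part of the X chromosome shared with the Y, had nearly as many counts but in another pattern, with 196, 1866, 781 and 1479 counts (CPM 551, 1404, 521 and 945). Its monosome CPM was the highest and its light polysome CPM the lowest of the 4, giving -2.31 for heavy polysome against monosome (-2.41 to -2.21), -2.41 for light polysome against monosome (-2.54 to -2.29) and 0.27 for heavy against light polysome (0.14 to 0.40). SLC25A4, the form known from heart and muscle, had 1, 8, 65 and 288 counts and was likewise highest in the heavy polysome library, with 1.49 for heavy against light polysome (1.10 to 1.91) and 3.11 against monosome (2.20 to 4.42).

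Taken as a share of the counts of both genes, SLC25A5 made up 21.6% of SLC25A5 and SLC25A6 in free (16.7 to 27.2), 13.0% in monosome (11.7 to 14.5), 38.4% in light polysome (35.7 to 41.1) and 70.4% in heavy polysome (69.1 to 71.6). The intervals of the 4 libraries do not overlap. SLC25A4 as a share of SLC25A4 and SLC25A6 was 0.508%, 0.427%, 7.68% and 16.3% in the same order. These shares are read across libraries, since a share between genes also depends on how well each gene is read. SLC25A5 has 9 processed copies in the genome and SLC25A6 has 6, and the sources used here do not say how reads with several matches were counted, so that part of the counts may belong to a copy.

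SLC25A39 and SLC25A3, the most counted SLC25 genes after SLC25A5 and SLC25A6, lay far apart. SLC25A3, the phosphate carrier (chr12:98593591-98606379, plus strand), had 11, 125, 192 and 1050 counts from free to heavy polysome, with its highest share in the heavy polysome library and a relative log2 ratio of 1.80 against light polysome (1.58 to 2.03). SLC25A39, which brings glutathione into mitochondria (chr17:44319625-44324870, minus strand), had 64, 1104, 1683 and 252 counts. Its CPM was 161 in the heavy polysome library, against 1122 in the light polysome library, at -3.39 for heavy against light polysome (-3.59 to -3.20) and -4.10 for heavy polysome against monosome (-4.31 to -3.91). Its start window at chr17:44324804-44324843 (minus strand) and that of SLC25A3 at chr12:98593666-98593705 (plus) are shown for these opposite patterns, with capitals as above, and neither has the C and 4 pyrimidines.
SLC25A3: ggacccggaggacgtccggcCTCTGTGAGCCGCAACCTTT
SLC25A39: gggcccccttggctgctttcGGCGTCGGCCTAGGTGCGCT

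SLC25A1, the citrate carrier, had 9, 128, 532 and 632 counts, and SLC25A11, which exchanges malate for 2-oxoglutarate, had 7, 61, 413 and 467 counts. Both were within 2-fold of the median gene for heavy against light polysome, at -0.40 (-0.57 to -0.23) and -0.47 (-0.67 to -0.28). SLC25A11 was higher in light polysome against monosome, at 1.59 (1.21 to 2.01), and it overlaps RNF167 on the other strand.

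Several carriers of cofactors, nucleotides and amino acids had their highest CPM in monosome or light polysome. SLC25A26, which carries S-adenosylmethionine, had 6, 167, 88 and 19 counts and peaked in the monosome library, at -5.08 for heavy polysome against monosome (-5.88 to -4.42), and it overlaps LRIG1 on the other strand. SLC25A38, a glycine carrier needed for haem synthesis, had 2, 42, 158 and 73 counts. It peaked in the light polysome library, at -1.76 (-2.19 to -1.36) for heavy against light polysome. SLC25A44, a carrier of branched-chain amino acids, also peaked there with 0, 19, 139 and 35 counts, at -2.63 (-3.22 to -2.10). SLC25A33, a carrier of pyrimidine nucleotides, had 15, 143, 213 and 84 counts and lay at -1.99 (-2.38 to -1.62). SLC25A51, which carries NAD+, had 5, 25 and 14 counts in the free, monosome and light polysome libraries and no count in the heavy polysome library. With its heavy polysome count set at 3, its share there was 4.87-fold lower than in light polysome and 9.81-fold lower than in monosome. These folds compare shares alone, without the median gene taken off and without counting error. The counting intervals of the relative log2 ratios reach up to -2.38 against light polysome and -4.63 against monosome.

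The ATP-Mg/phosphate carriers, which are regulated by calcium, differed among themselves. SLC25A23 had 12, 390, 378 and 90 counts, with nearly equal counts in monosome and light polysome, and lay at -2.72 for heavy against light polysome (-3.07 to -2.39). SLC25A24 had 1, 3, 4 and 35 counts and lay at 2.33 (0.99 to 4.43), and SLC25A25 had 0, 3, 6 and 27 counts and lay at 1.43 (0.21 to 3.08). The intervals of SLC25A24 and SLC25A25 do not overlap that of SLC25A23, although both genes rest on few counts. The mitoferrins, which carry iron, differed as well. SLC25A37 had 0, 26, 56 and 10 counts and SLC25A28 had 1, 33, 40 and 69 counts, so that SLC25A37 made up 44.1% of the pair in monosome (31.2 to 57.6), 58.3% in light polysome (47.8 to 68.3) and 12.7% in heavy polysome (6.24 to 22.0). The aspartate-glutamate carriers SLC25A12 and SLC25A13 showed no such shift, with SLC25A12 at 28.0%, 34.0% and 25.3% of the pair in monosome, light and heavy polysome and intervals that overlap throughout.

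Other SLC25 genes were higher in heavy against light polysome. Among them was SLC25A20, which brings acylcarnitines in for fatty acid oxidation, with 0, 2, 3 and 51 counts. Nearly all of its counts lay in the heavy polysome library, at 3.23 (1.81 to 5.76). SLC25A17, a peroxisomal carrier, had 2, 16, 43 and 167 counts and lay at 1.29 (0.81 to 1.82).

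**Figure D2:**
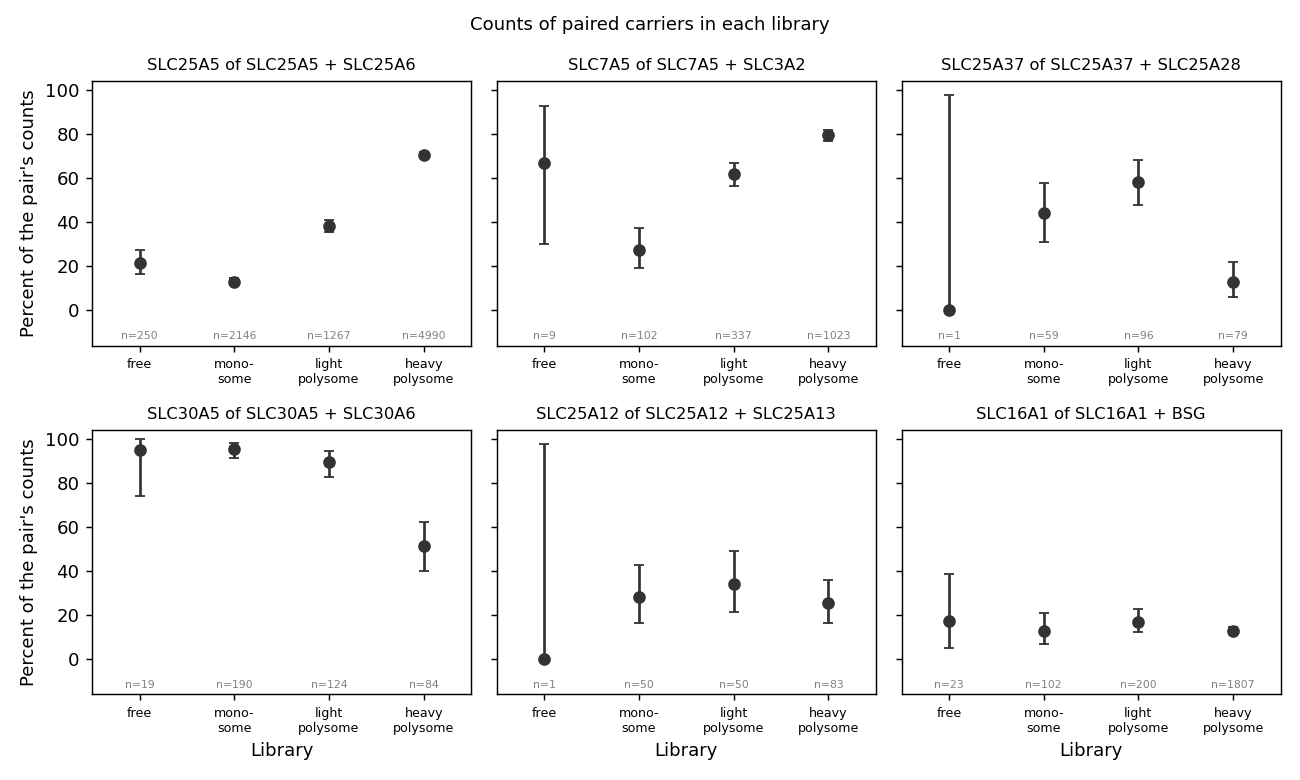
Points give the percent of a pair's counts that belong to the first gene in each library, from free to heavy polysome, with 95% Clopper-Pearson intervals as bars and the pair's counts as n. SLC25A5 reaches 70.4% and SLC7A5 79.5% in the heavy polysome library, SLC25A37 and SLC30A5 are lowest there among the 3 libraries with ribosomes, and SLC25A12 and SLC16A1 stay within overlapping intervals.

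Of the 19 amino acid carriers, 4 were higher and 4 were lower in heavy against light polysome (21.1% each), near the 26.0% and 28.3% of all tested genes, with a median of -0.10. SLC7A5, which imports large neutral amino acids (chr16:87830023-87869488, minus strand), led them with 6, 28, 208 and 813 counts, a CPM of 520 in the heavy polysome library. It was higher in heavy polysome against light polysome at 1.31 (1.09 to 1.54), against monosome at 2.86 (2.34 to 3.48) and against free at 1.78 (0.77 to 3.35). SLC3A2, the partner chain that takes SLC7A5 to the cell surface, had 3, 74, 129 and 210 counts and lay within 2-fold of the median gene, at 0.05 against light polysome (-0.27 to 0.38) and -0.48 against monosome (-0.86 to -0.07). SLC7A5 accordingly made up 27.5% of the counts of the pair in monosome (19.1 to 37.2), 61.7% in light polysome (56.3 to 66.9) and 79.5% in heavy polysome (76.9 to 81.9), and the free library held only 9 counts of the pair.

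Other carriers of neutral amino acids and of creatine differed from each other. SLC1A5, which imports glutamine and other neutral amino acids, had 1, 50, 128 and 253 counts and lay at 0.33 for heavy against light polysome (0.02 to 0.65). SLC38A2, whose known function is sodium-coupled uptake of small neutral amino acids, had 0, 13, 6 and 38 counts, lowest in light polysome among the 3 libraries with ribosomes. It was higher in heavy against light polysome, at 1.91 (0.76 to 3.54), and lower in light polysome against monosome, at -2.21 (-3.95 to -0.78). With the libraries thinned to the depth of the shallowest one, the value for heavy against light polysome was 0.85, less than 2-fold. SLC6A8, the creatine carrier, had 3, 59, 549 and 301 counts and was the most counted member to peak in light polysome outside SLC25, at -1.52 for heavy against light polysome (-1.73 to -1.31) and 2.05 for light polysome against monosome (1.67 to 2.47). It overlaps PNCK on the other strand.

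The 8 carriers of sugar and monocarboxylate families had 2 higher (25.0%) and 1 lower (12.5%) in heavy against light polysome, where 26.0% of all tested genes were higher and 28.3% lower. SLC2A1, the widespread glucose carrier, had 1, 12, 18 and 78 counts and was higher, at 1.43 (0.71 to 2.29). SLC16A1, which moves lactate and pyruvate, had 4, 13, 34 and 233 counts and was higher, at 2.11 (1.6 to 2.69). BSG, the chaperone that takes SLC16A1 to the cell surface, had 19, 89, 166 and 1574 counts and was higher as well, at 2.59 (2.36 to 2.83). SLC16A1 was 12.7% of the counts of that pair in monosome, 17.0% in light polysome and 12.9% in heavy polysome, with overlapping intervals. SLC50A1, a small sugar carrier of the Golgi, had 12, 211, 247 and 116 counts and was lower, at -1.74 (-2.07 to -1.42). SLC5A6, placed here by its family although it carries vitamins such as biotin, had 1, 23, 65 and 193 counts and lay at 0.91 (0.51 to 1.35). SLC37A4, which brings glucose 6-phosphate into the endoplasmic reticulum, had 1, 27, 64 and 97 counts and lay at -0.06 (-0.52 to 0.43). They overlap ATRAID and TRAPPC4 on the other strand, and both were within 2-fold of the median gene.

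The SLC35 family holds the carriers that bring nucleotide sugars into the Golgi and the endoplasmic reticulum, along with members of unknown substrate. None of its 16 genes was higher in heavy against light polysome and 7 were lower (43.8%), where 26.0% of all tested genes were higher and 28.3% lower. The median was -0.80, and 15 of 16 lay below the median gene. Together they held 0.0101% of the free, 0.0337% of the monosome, 0.0721% of the light polysome and 0.0530% of the heavy polysome counts. The highest CPM lay in light polysome for 10 of 16 (62.5%), against 30.0% of all tested genes. SLC35C2, the most counted of them after SLC35B1, had 3, 97, 207 and 51 counts and lay at -2.66 (-3.14 to -2.22). SLC35B1, which supplies ATP to the endoplasmic reticulum, had 16, 121, 192 and 147 counts and lay at -1.04 (-1.36 to -0.72). The gene above the median was SLC35B2, which carries the sulfate donor into the Golgi, with 2, 4, 46 and 128 counts, at 0.81 (0.33 to 1.34). SLC35B4, a carrier of UDP-sugars, had 1, 22, 79 and 70 counts and was within 2-fold of the median gene, at -0.83 (-1.31 to -0.34). SLC35E2A and SLC35E2B are close copies that may share reads, and both were lower.

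Of 15 zinc carriers, 7 were higher (46.7%) and 2 lower (13.3%) in heavy against light polysome, where 26.0% of all tested genes were higher and 28.3% lower. Their median was 0.97, and their share was 0.00844% of the free, 0.0268% of the monosome, 0.0405% of the light polysome and 0.0601% of the heavy polysome counts. Among the SLC39 importers, SLC39A14, which also carries iron and manganese, had 0, 5, 3 and 110 counts and the highest relative log2 ratio of any solute carrier for heavy against light polysome, at 4.33 (2.96 to 6.84). SLC39A7, which releases zinc from the endoplasmic reticulum, had 1, 14, 43 and 168 counts and lay at 1.30 (0.82 to 1.83). SLC39A6 had 1, 6, 13 and 79 counts and lay at 1.91 (1.10 to 2.92), and its partner SLC39A10 had 0, 9, 2 and 23 counts and lay at 2.58 (0.85 to 6.00). SLC39A4, the intestinal zinc importer, did not follow, with 5, 43, 204 and 185 counts and -0.79 (-1.09 to -0.50). It was not alone: of the 10 SLC39 genes, 5 lay above the median gene and 5 below it. Among these 10 genes, 5 were called higher (50.0%) and 1 lower (10.0%). Zinc carriers as a list were near the median gene in heavy polysome against monosome, with a median of 0.15. There 4 were higher (26.7%) and 2 lower (13.3%), against 21.0% higher and 27.0% lower of all tested genes.

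Among the SLC30 zinc exporters, SLC30A5 stood apart from the partner it pairs with in the secretory pathway. SLC30A5 had 18, 181, 111 and 43 counts, with its highest share in monosome, at -2.01 for heavy against light polysome (-2.56 to -1.50) and -4.04 against monosome (-4.56 to -3.56). SLC30A6 had 1, 9, 13 and 41 counts and its highest share in heavy polysome, at 0.97 against light polysome (0.08 to 2.03). SLC30A5 made up 95.3% of the counts of both in monosome (91.2 to 97.8), 89.5% in light polysome (82.7 to 94.3) and 51.2% in heavy polysome (40.0 to 62.3). SLC30A1, the zinc exporter of the plasma membrane, had 0, 6, 5 and 29 counts and was higher in heavy against light polysome, at 1.77 (0.50 to 3.61).

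**Figure D3:**
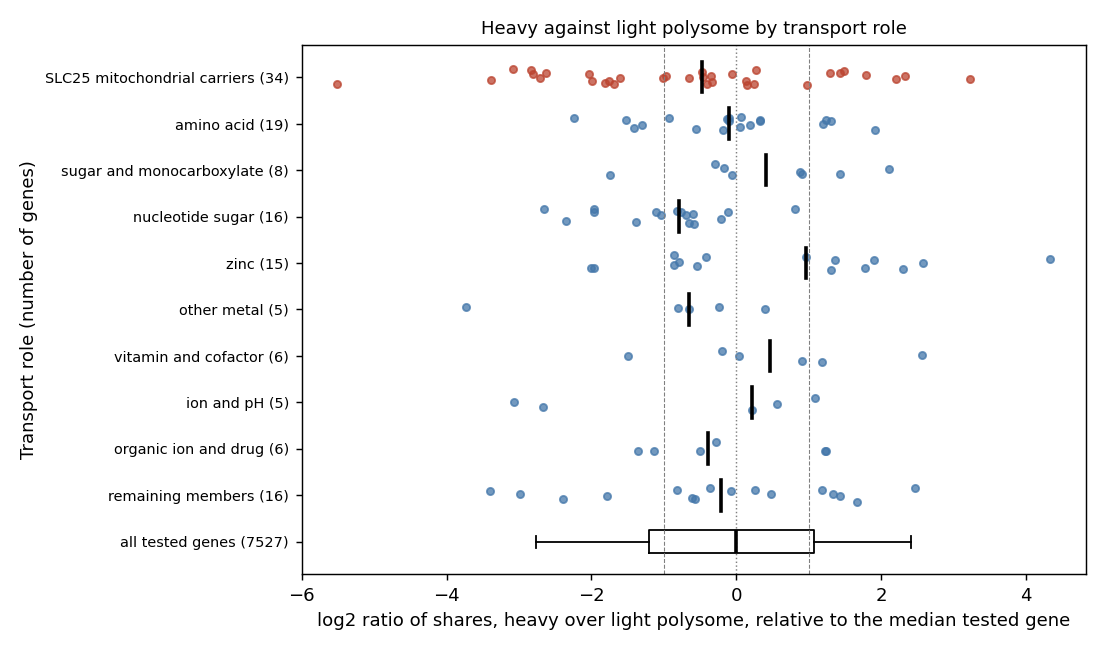
Each point is a solute carrier gene at its relative log2 ratio of shares, heavy over light polysome, grouped by transport role, with black bars at the group medians, dashed lines at 2-fold and a box for all 7527 tested genes (quartiles, whiskers at the 5th and 95th percentiles). All but 1 of the 16 nucleotide sugar family members lie left of 0, and the zinc carriers range from -2.01 to 4.33.

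Vitamin and cofactor carriers were few and lightly counted. For heavy polysome against monosome, 3 of 6 were higher (50.0%) and 0 were lower, where 21.0% of all tested genes were higher and 27.0% lower, and the median of the 6 was 1.40. SLC52A2, a riboflavin carrier and the most counted of them, had 1, 18, 98 and 135 counts and was within 2-fold of the median gene, at 0.90 (0.22 to 1.73). It overlaps FBXL6 and TMEM249 on the other strand. SLC48A1, a haem carrier, and SLC23A2, an ascorbate carrier, were neither higher nor lower, at -0.50 (-2.11 to 1.70) and -0.23 (-1.61 to 1.66), and SLC48A1 overlaps HDAC7 and RAPGEF3 on the other strand. The other 3 were the higher ones. SLC46A1, the proton-coupled folate carrier, had 0, 1, 17 and 62 counts and lay at 3.41 (1.45 to 9.30), and SLC19A1, the reduced folate carrier, had 2, 7, 37 and 110 counts and lay at 1.91 (0.91 to 3.35). Both overlap another gene on the other strand, SARM1 and COL18A1. SLC49A4 had 1, 0, 3 and 32 counts. With its monosome count set at 3, its share in heavy polysome was 9.06-fold higher than in monosome, without the median gene taken off. The counting interval of its relative log2 ratio starts at 1.06.

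Outside these groups, SLC66A2 had 2, 93, 234 and 46 counts, with its highest CPM in light polysome, and was lower in heavy against light polysome, at -2.99 (-3.49 to -2.54). SLC31A1, a copper importer, had 1, 7, 71 and 95 counts and was within 2-fold of the median gene for heavy against light polysome, at -0.23 (-0.69 to 0.23), but higher in heavy polysome against monosome, at 1.69 (0.69 to 3.14).

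Ion, phosphate and lipid carriers also differed within families. SLC4A2, an anion exchanger that swaps chloride for bicarbonate, had 0, 16, 126 and 292 counts. It was higher in heavy polysome against monosome, at 2.17 (1.49 to 3.04). With its free count set at 3, its share was 22.1-fold higher in heavy polysome than in free, without the median gene taken off. The median gene itself was 8.26-fold higher there, and the counting interval of the relative log2 ratio of SLC4A2 starts at 1.11. SLC4A2 overlaps CDK5 on the other strand. SLC9A3, a sodium-proton exchanger, had 1, 41, 93 and 17 counts and lay at -3.07 for heavy against light polysome (-3.94 to -2.35), whereas SLC9A3R1, the scaffold protein named after it, had 3, 8, 25 and 221 counts and lay at 2.47 (1.89 to 3.15). SLC20A1, a phosphate importer, had 5, 59, 173 and 258 counts and was near the median gene, at -0.08 (-0.36 to 0.21). SLC27A5, a bile acid and fatty acid CoA ligase of liver, had 6, 115, 50 and 7 counts, and SLC27A4, a fatty acid transport protein, had 0, 23, 108 and 204 counts. The pair lay at -5.92 (-7.36 to -4.92) and 1.15 (0.55 to 1.86) for heavy polysome against monosome. SLC27A5 overlaps ZNF446 on the other strand.

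**Figure D4:**
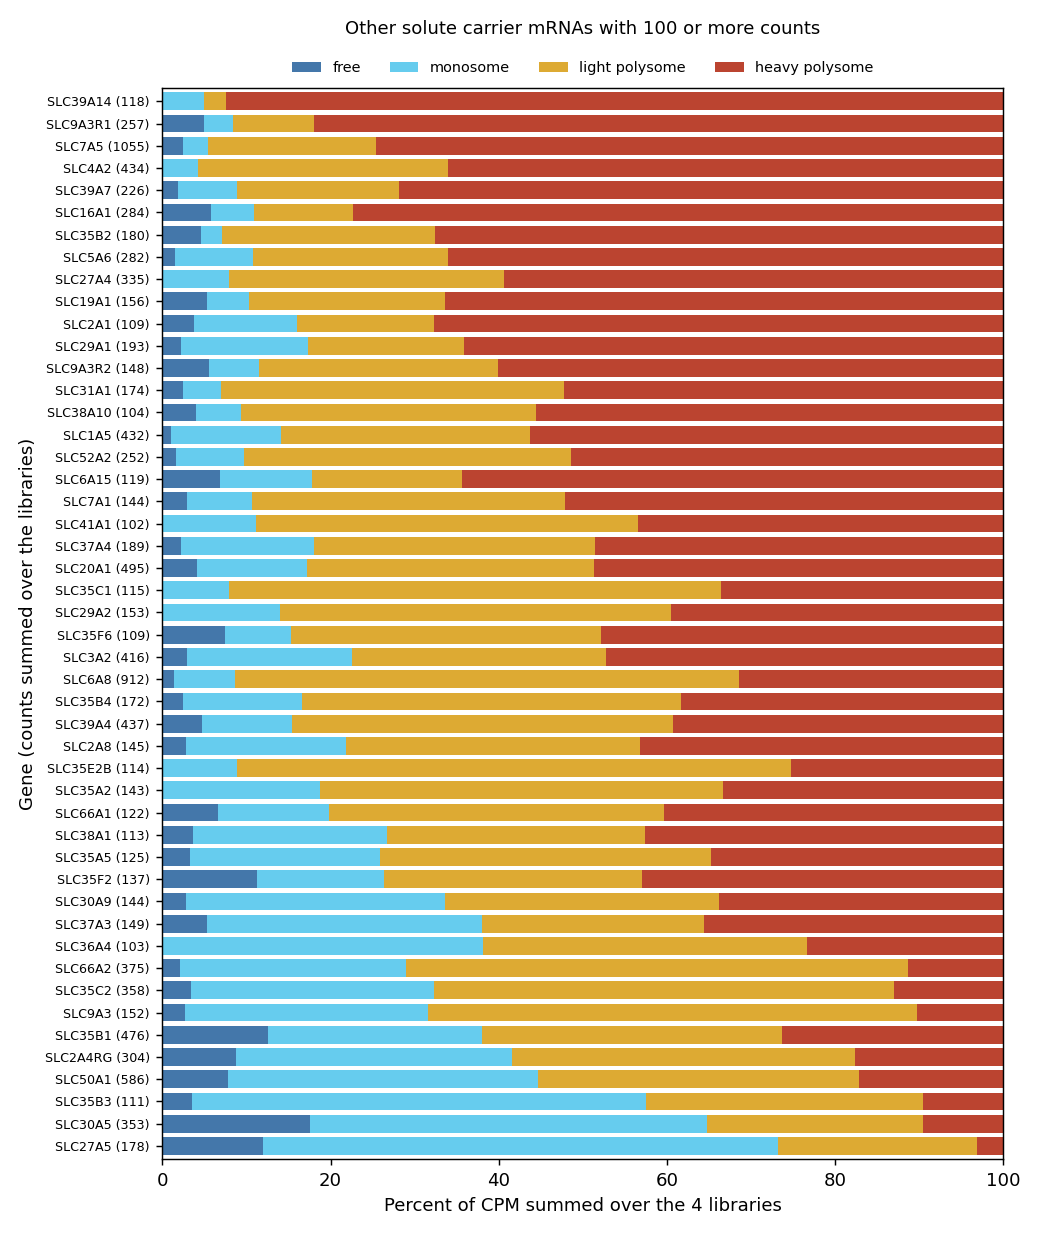
Horizontal bars give the percent of CPM summed over the 4 libraries that lay in each library, from free (left) to heavy polysome (right), for the other solute carriers with 100 or more counts, with summed counts in brackets and genes ordered by mean gradient position. SLC39A14 is at the top with 92.4% in the heavy polysome library, and SLC27A5 is at the bottom with 61.3% in the monosome library.

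Coding length differed between the lists. The median coding sequence was 948 nucleotides in SLC25, 1479 in the other solute carriers and 1197 in all tested genes. The medians of heavy polysome against monosome, of light polysome against monosome and of gradient position ran in that order of length, lowest in SLC25 and highest in the other solute carriers. For heavy against light polysome they did not, since both lists of solute carriers lay below all tested genes. For heavy polysome against monosome, lists were also compared among genes of 900 or more but under 1200 nucleotides. The medians there were -1.02 in SLC25, -0.09 in the other solute carriers and 0.38 in all tested genes. Whether coding length has a part in these differences was not tested. Among genes of 900 or more but under 1200 nucleotides, the 21 SLC25 genes had 3 higher and 11 lower in heavy against light polysome with a median of -1.01, and the 18 other solute carriers had 3 higher and 6 lower with a median of -0.74. All 1286 tested genes of that length had a median of 0.44, with 35.8% higher and 21.9% lower. From 1200 to under 1800 nucleotides the 47 other solute carriers had a median of -0.10 and all 1836 tested genes a median of 0.65, while the 4 SLC25 genes had a median of 1.21. Below 900 nucleotides the medians were -0.05 over 7 SLC25 genes, -1.74 over 7 other solute carriers and -0.96 over 2482 tested genes. Spearman's rho between coding length and the relative log2 ratio describes genes that share the same libraries. For heavy against light polysome it was 0.07 over the 34 SLC25 genes, 0.27 over the 96 others and 0.33 over 7518 tested genes. In the same order it was -0.02, 0.17 and 0.25 for heavy polysome against monosome, and -0.13, -0.13 and -0.01 for light polysome against monosome.

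**Figure D5:**
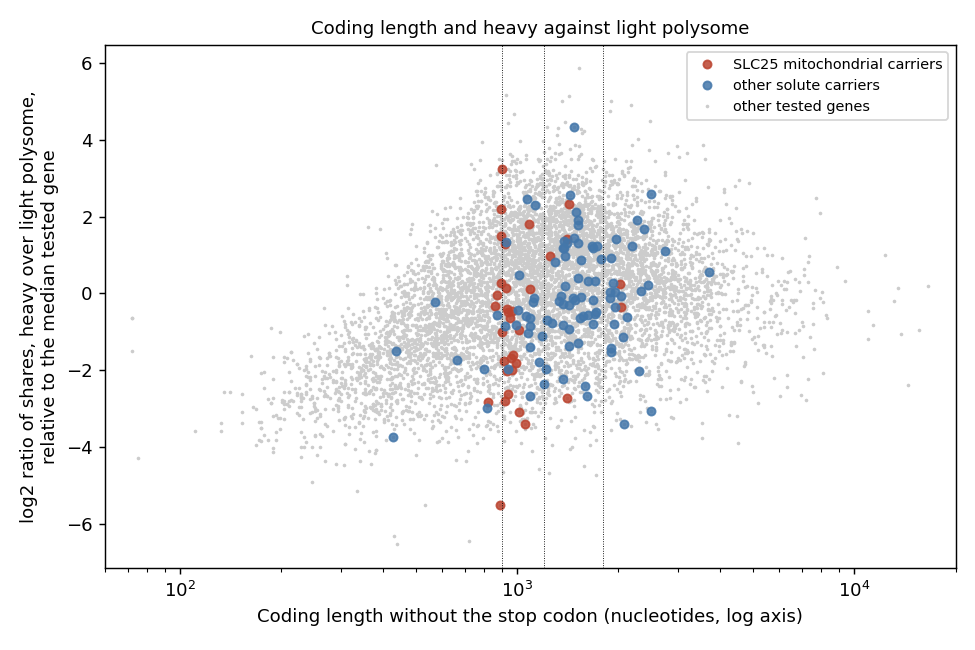
Each point is a gene at its coding length without the stop codon (nucleotides, log axis) and its relative log2 ratio of shares, heavy over light polysome, with SLC25 genes in red, other solute carriers in blue, the remaining tested genes in grey and dotted lines at the bin edges. Most SLC25 genes lie between 822 and 1092 nucleotides and range from -5.51 to 3.23 on the vertical axis.

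Genes that serve carriers were described from lists of their own. Of 12 genes for the import of carriers into mitochondria, 1 was higher (8.33%) and 7 were lower (58.3%) in heavy against light polysome, where 26.0% of all tested genes were higher and 28.3% lower, and their median was -1.87. The 5 small intermembrane proteins TIMM8A, TIMM9, TIMM10, TIMM10B and TIMM13 were all lower, from -3.43 to -2.25, and so was the receptor TOMM22 at -3.40. The receptor TOMM70, which recognises carrier precursors, was higher with 1, 11, 21 and 130 counts, at 1.95. The coding sequences of these 5 proteins have 267 to 309 nucleotides, and tested genes under 900 nucleotides had a median of -0.96. Among 14 mitochondrial and other carriers without an SLC symbol, 5 were higher (35.7%) and 3 lower (21.4%), with a median of 0.07. The higher ones were LETM1, an ion exchanger of the inner mitochondrial membrane, at 1.84, FLVCR1 at 1.20, the mitochondrial serine carrier SFXN1 at 1.13, MTCH2 of the outer mitochondrial membrane at 1.10 and MCU, the pore of the calcium uniporter, at 1.02. Of the lower ones, UCP2, a member of the SLC25 family under its older name, had 4, 214, 948 and 231 counts and lay at -2.69, and the pyruvate carrier subunits MPC1 and MPC2 lay at -1.26 and -3.58. Of 18 genes for membrane insertion at the endoplasmic reticulum, 3 were higher (16.7%) and 6 lower (33.3%), near the 26.0% and 28.3% of all tested genes, with a median of -0.81, from EMC6 at -4.04 to EMC2 at 3.32.

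Counting limits some of these values. A protein-coding gene overlaps 32 members on the other strand and 7 on the same strand, 20 members have processed copies in the genome, and the sources used here do not say whether counting used strand. Beside the overlaps named above, SLC9A3 overlaps EXOC3, SLC22A23 overlaps PSMG4 and SLC39A7 overlaps RXRB on the other strand. Among SLC25 genes, SLC25A12 overlaps METAP1D, SLC25A22 overlaps PANO1 and SLC25A25 overlaps NAIF1 on the other strand. SLC4A1AP overlaps SUPT7L and SLC7A6OS overlaps SLC7A6 in the same way, while SLC25A51 and SLC2A4RG overlap a gene on their own strand. Of the most counted members, SLC25A1 has 5 processed copies, SLC25A3, SLC25A39 and SLC7A5 have 2 each, and SLC31A1 has 1. The part of these overlaps and copies in the counts was not tested.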

How the data were processed

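The authors deposited unscaled whole counts per gene for 4 libraries. The submitters' processing notes name minimap2 2.15, featureCounts, Subread 1.6.2 and hg38. No source used here gives the annotation release or says whether strand was considered. Counts were read for 19948 symbols, of which 7527 had 30 or more counts and formed the background of every comparison. Log2 ratios of shares (0.5 added to each count) were centred on the median tested gene, with exact conditional binomial (Clopper-Pearson) intervals at 95%. With 1 library per pool no replicate test could be fitted, so edgeR's quasi-likelihood test was not run; the procedure was tested on simulated counts.

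Coding lengths came from GENCODE 29 principal transcripts, matched for 19670 symbols by name and 126 by Ensembl ID (99.88% of tested genes). Start sequences came from RefSeq (GRCh38.p14). No protein sequences were used. Members, roles and gene lists were chosen with earlier results of these data known, and pairs of genes after their values were seen. Named genes are the 15 SLC25 and 25 other members with most counts and, with some left out, the extremes of each comparison among members with 100 or more counts in its libraries, the most counted of each family, threshold neighbours, listed carriers and partner genes; SLC4A1AP, SLC7A6OS, SLC9A3R2, SLC11A2, SLC19A1, SLC25A12, SLC25A22, SLC25A24, SLC25A25, SLC25A28, SLC25A51, SLC25A53, SLC30A6, SLC35E2A, SLC35E2B, SLC39A6, SLC41A3, SLC46A1, SLC48A1 and SLC49A4 lie outside that rule and were chosen after their values were seen. A member of SLC25 that the rule names is kept in the totals, and its own values are not reported here.

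Alternatives were other minimum counts, 1 added, a floor of 3 counts, edgeR 4.0.16 (TMM) and DESeq2 1.42.0 scaling, thinning, 2-fold alone, summed counts and leaving out members. Python 3.11.15, numpy 2.4.6, pandas 2.3.3, scipy 1.17.1, matplotlib 3.10.9 and R 4.3.3 were used.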

Additional observations from a re-analysis of the deposited data

How the results depend on the processing

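The difference between the SLC25 and other medians kept its sign in every setting tried for heavy polysome against monosome (-1.24 to -0.75) and light polysome against monosome (-0.94 to -0.46). For heavy against light polysome it ran from -0.73 (thinned to the shallowest library) to 0.17 (summed counts). For light polysome against free it was -1.22 with summed counts. With the free library in the comparison the median of the other solute carriers for light polysome against free was 0.00 with no filter on low counts.

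Counts of called members moved by more than 1.5 times in these settings. They are given without the share of all tested genes called under the same setting. The number of members also differs between some settings, so these counts cannot be set directly against the main ones. A minimum of 100 counts left 15 higher and 20 lower for heavy against light polysome, 17 higher for light polysome against monosome and 3 lower for light polysome against free. Thinning gave 17 higher for heavy against light polysome, 14 higher and 22 lower for heavy polysome against monosome, 14 higher and 9 lower for light polysome against monosome, and 2 higher for monosome against free. Higher members for heavy polysome against free numbered 13 with a minimum of 10 counts, with 1 added, with TMM and with DESeq2 size factors, 24 with no filter, 19 with the floor of 3 counts, 27 with 2-fold alone and 3 without members with copies; lower members numbered 28 with 2-fold alone. For light polysome against free they numbered 20 higher with a minimum of 10, with 1 added and with the floor, 33 higher and 2 lower with no filter, 41 higher and 20 lower with 2-fold alone, and 2 lower without members with copies. For monosome against free they numbered 11 higher with a minimum of 10 and with TMM, 24 with no filter, 12 with 1 added, 20 with the floor, 10 with DESeq2 size factors, and 37 higher and 20 lower with 2-fold alone. Fewer genes or reads enter under the minimum of 100, under thinning and without members with copies. More members enter under the minimum of 10 and with no filter. The setting of 2-fold alone drops the counting interval from the rule, which can only add calls. Otherwise the cause was not tested. Comparisons with the free library are limited by its depth. Leaving out the 5 members that are not carriers, and keeping members with 100 or more counts, were chosen after seeing the data. No paired analysis was possible because each pool has 1 library, and for the same reason no replicate could be left out.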
